A study of Mus musculus with 10 samples.

Results

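The mitochondrial carrier family, solute carrier family 25 (Slc25), was described at E17.5 and at E11.5 in cells of the distal tips of embryonic mouse lungs. Members were all genes whose symbol in the array annotation is Slc25a followed by a number, or *Ucp1*, *Ucp2* or *Ucp3*, and which have a probe set naming that gene alone. This gave 45 genes of 17813 tested, and the rule used no measured difference between the stages. *Ucp2*, *Slc25a21*, *Slc25a26*, *Slc25a43* and *Slc25a52* were not analysed here. Each gene was read by its brightest probe set, and only *Slc25a27* and *Slc25a48* had a second one.

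For E17.5, embryos of genotype *Id2-CreER; Rosa26R-fGFP* had been exposed to tamoxifen at E16.5, and GFP+ lung cells were collected on a flow sorter. The Cre is driven from *Id2*, so the label marks cells that expressed *Id2* at that time, and a small number of their immediate progeny came with them. The E11.5 samples were tips microdissected by hand after dispase, and the labels give these embryos the same genotype. There were 5 arrays per stage, which the labels call biological replicates. No source used here says whether they came from separate litters, so the spread may in part be technical. Stage, tamoxifen, labelling, dissociation and the way of isolation cannot be told apart. Values are log2 signals per probe set of Affymetrix arrays, which measure 3′ ends of transcripts after amplification, and a difference of 1 is a 2-fold change.

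Mitochondrial carriers are nuclear-encoded proteins that sit mostly in the inner mitochondrial membrane and exchange nucleotides, phosphate, keto acids, amino acids, cofactors and iron between matrix and cytosol. They are made in the cytosol and brought in through the TOM70 receptor, the small TIM chaperones and the TIM22 complex. Lung epithelium makes surfactant lipid late in gestation, and fatty acid synthesis uses citrate that a carrier exports from the matrix.

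The carriers did not move as 1 block. In limma, with p-values adjusted by the Benjamini-Hochberg method over all 17813 genes, 18 of 45 members rose at E17.5 and 12 fell, and 15 missed an adjusted p of 0.05. Of all genes tested, 36.9% were higher and 31.5% were lower, so the members' shares of 40% and 26.7% lie near the background. The split depends on how the arrays are scaled. Quantile normalization gave 16 higher and 18 lower members, 35.6% and 40%, beside 32% and 39% of all genes. Centring on the median gave 17 and 21, 37.8% and 46.7%, beside 30.9% and 44.5% of all genes, so the members' shares again lie near the background. The median log2 fold change of the members was 0.11 as deposited, beside 0.03 for all genes, and it was -0.073 after quantile normalization (all genes -0.035) and -0.135 after median centring (all genes -0.217). Centring moved every gene by the same -0.244. At least 2-fold changes were found for 12 higher and 5 lower members, 26.7% and 11.1%, where 24.2% and 16.3% of all genes passed these limits. With quantile-normalized values these counts were 7 and 8, and with centred values 10 and 7. The shares of all genes passing these limits under those 2 scalings were not counted. The shift in these counts therefore shows nothing particular to carriers. The 5 E17.5 arrays lay wholly above the 5 E11.5 arrays for 18 members and wholly below them for 10, which is 40% and 22.2%, against 32.3% and 26.3% of all genes.

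**Figure D1:**
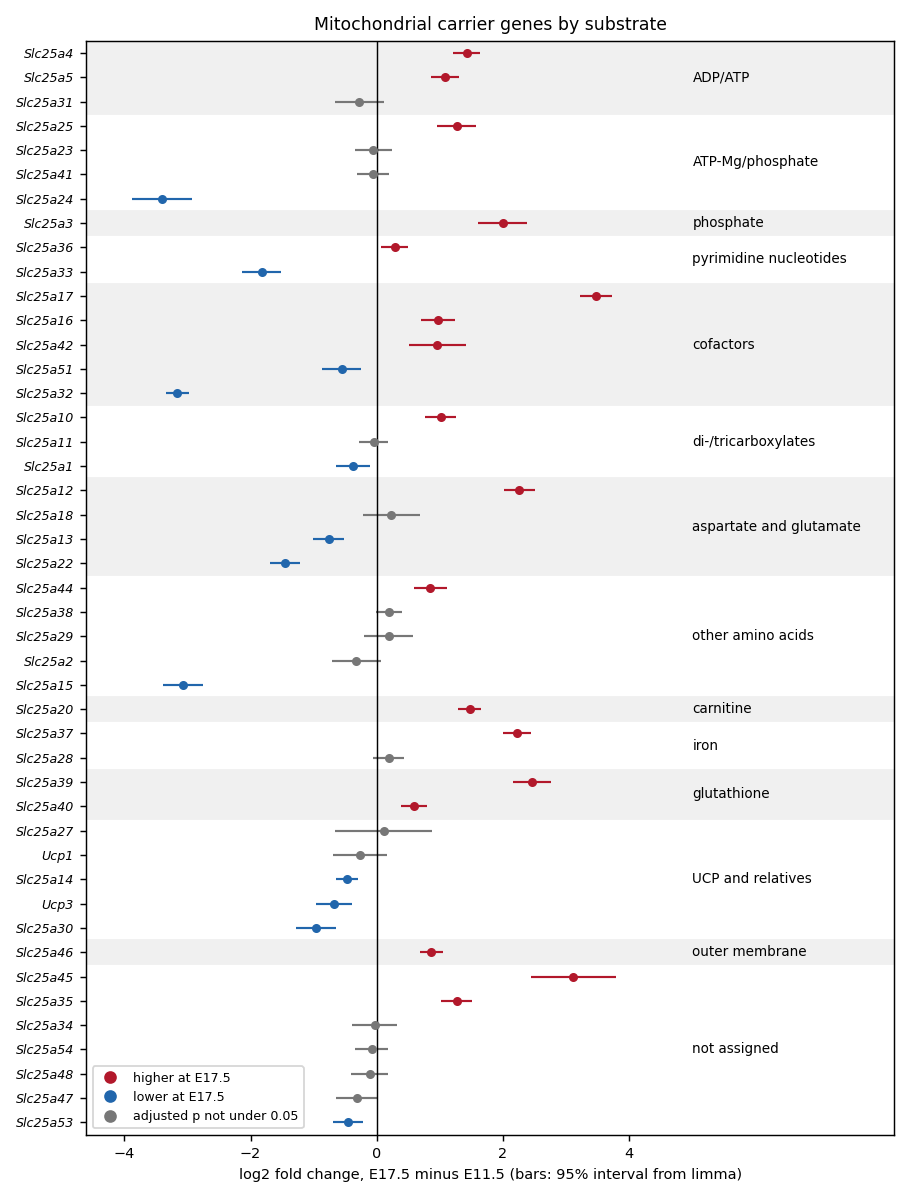
Log2 fold change (x axis, E17.5 minus E11.5) of each carrier gene (y axis), grouped by substrate, with the 95% interval from limma on 5 arrays per stage. Points run from -3.41 for *Slc25a24* to 3.48 for *Slc25a17*, and carriers called in both directions stand within the ATP-Mg/phosphate, pyrimidine nucleotide, cofactor, di- and tricarboxylate, aspartate and glutamate, other amino acid and unassigned groups.

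Markers of other cells moved between the same samples. The mean log2 signal of 12 macrophage and monocyte markers lay between 9.34 and 10.1 on E17.5 arrays and between 5.65 and 6.47 on E11.5 arrays, and 11 rose. That of 10 endothelial markers lay between 9.38 and 11.4 for E17.5 and between 5.58 and 6.76 for E11.5, and 9 rose. In neither list did a marker fall. The 8 erythroid markers had means between 4.72 and 5.304 for E17.5 and between 6.79 and 7.83 for E11.5. While *Alas2* rose, 5 of them fell. The embryonic globins *Hbb-y*, *Hba-x* and *Hbb-bh1* had log2 fold changes of -7.84, -6.72 and -6.04, so the lower mean rests on them. *Epb42* and *Klf1* had smaller falls (-0.54 and -0.76), and *Gata1* and *Rhag* were not called (0.03 and 0.06). Of 10 muscle markers 6 were higher and 3 lower, and of 10 mesenchymal markers 3 were higher and 4 lower. The 8 epithelial markers averaged between 12.3 and 12.5 on E17.5 arrays and between 11.6 and 11.7 on E11.5 arrays. Their mean was thus high in both stages, though 5 were higher, *Foxa2* and *Cldn6* lower and *Nkx2-1* not called. Among 6 distal tip markers *Id2*, *Mycn* and *Bmp4* were higher, *Etv4* and *Etv5* lower and *Sox9* not called. Of 8 AT2 markers 7 were higher and *Lpcat1* was lower. The *Lpcat1* mean of 3.17 at E17.5 lies under the lower quartile of those arrays (4.56 to 4.66) and may be background. By staining, the paper found LPCAT1 protein robustly in tip progenitors from E16.5. In bulk samples a change in the cells present and a change in RNA per cell cannot be told apart. The part of each of these cell types in the carrier values was not tested.

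The largest rise was that of *Slc25a17*, a carrier of CoA, FAD and NAD that lies in the peroxisomal and not the mitochondrial membrane. Its log2 signal was 10.65, 10.49, 10.198, 10.17 and 10.57 on E17.5 replicates 1 to 5, against 6.72, 6.97, 6.95, 7.03 and 7.03 on E11.5 replicates 1 to 5. The stages did not overlap, and the change was 11.1-fold (log2 fold change 3.48, SE 0.12, adjusted p = 7e-11 from limma). *Slc25a45*, whose substrate is not assigned here, gave 7.42, 7.903, 8.09, 7.37 and 7.41 at E17.5, against 5.52, 3.54, 4.196, 4.61 and 4.76 at E11.5. The E11.5 arrays were dim, with a mean of 4.52 that lies under the lower quartile of those arrays (4.56 to 4.7), and spread over 1.99 log2 units, with replicate 1 the highest. The stages did not overlap and the change was 8.65-fold, with a wide 95% interval of 2.44 to 3.79 on the log2 scale (adjusted p = 1.7e-06).

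*Slc25a39*, which brings glutathione into the matrix, had log2 signals of 12.45, 12.62, 13.06, 12.94 and 12.54 at E17.5, against 10.47, 10.31, 10.39, 10.18 and 9.97 at E11.5. All E17.5 arrays were higher and the change was 5.49-fold (adjusted p = 9.3e-09). Its probe set carries the suffix _x, which marks probes that can also bind other transcripts. *Slc25a12*, the aspartate-glutamate carrier aralar of the malate-aspartate shuttle, gave 8.65, 8.85, 9.12, 9.12 and 8.89 at E17.5, against 6.85, 6.66, 6.502, 6.67 and 6.66 at E11.5. It rose 4.78-fold (adjusted p = 2.1e-09) with no overlap. *Slc25a37*, mitoferrin 1, imports iron for haem and iron-sulphur clusters and is known best from red cell precursors. It was at 9.85, 9.58, 9.94, 10.04 and 9.86 at E17.5, against 7.72, 7.71, 7.74, 7.51 and 7.496 at E11.5, a 4.65-fold rise (adjusted p = 1.3e-09). Of the 8 erythroid markers, the embryonic globins *Hbb-y*, *Hba-x* and *Hbb-bh1* and also *Epb42* and *Klf1* fell, *Alas2*, the first enzyme of haem synthesis in red cells, rose 2.79-fold (adjusted p = 0.0035), and the part of red cells in the *Slc25a37* values was not tested.

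Among falls, *Slc25a24*, the calcium-regulated ATP-Mg/phosphate carrier SCaMC-1, led. Its log2 signal was 7.19, 6.67, 6.03, 5.87 and 6.65 on E17.5 replicates 1 to 5, against 9.85, 9.87, 9.75, 9.86 and 10.12 on E11.5 replicates 1 to 5, and it was 10.6-fold lower (log2 fold change -3.41, SE 0.22, adjusted p = 2.5e-08 from limma). The E17.5 arrays were uneven, with replicate 1 highest and replicate 4 lowest, but all lay below the E11.5 arrays. *Slc25a32*, a carrier of folate and FAD, gave 3.55, 3.62, 3.71, 3.54 and 3.81 at E17.5, against 6.78, 6.69, 6.83, 6.92 and 6.801 at E11.5. It was 8.93-fold lower by the measured signals (adjusted p = 1.2e-11). Its E17.5 mean of 3.65 lies under the lower quartile of those arrays (4.56 to 4.66), so the size of the fall, and its rank, rest on a signal that may be background. *Slc25a15*, the main ornithine carrier of the urea cycle and polyamine supply, gave 5.58, 5.83, 5.31, 4.97 and 5.57 at E17.5, against 8.42, 8.64, 8.44, 8.46 and 8.64 at E11.5, 8.39-fold lower (adjusted p = 1.6e-09).

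*Slc25a33*, a pyrimidine nucleotide carrier that serves mitochondrial DNA and RNA synthesis, was at 8.15, 7.95, 8.46, 8.09 and 7.71 at E17.5, against 10.12, 9.98, 9.999, 9.72 and 9.67 at E11.5, 3.54-fold lower (adjusted p = 1.7e-07). *Slc25a22*, a glutamate carrier, was at 7.86, 7.998, 7.99, 8.05 and 7.81 at E17.5, against 9.72, 9.32, 9.48, 9.196 and 9.27 at E11.5, 2.74-fold lower (adjusted p = 1.2e-07). Neither had overlapping arrays. These 10 genes kept their direction and their call under each alternative that measured them.

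**Figure D2:**
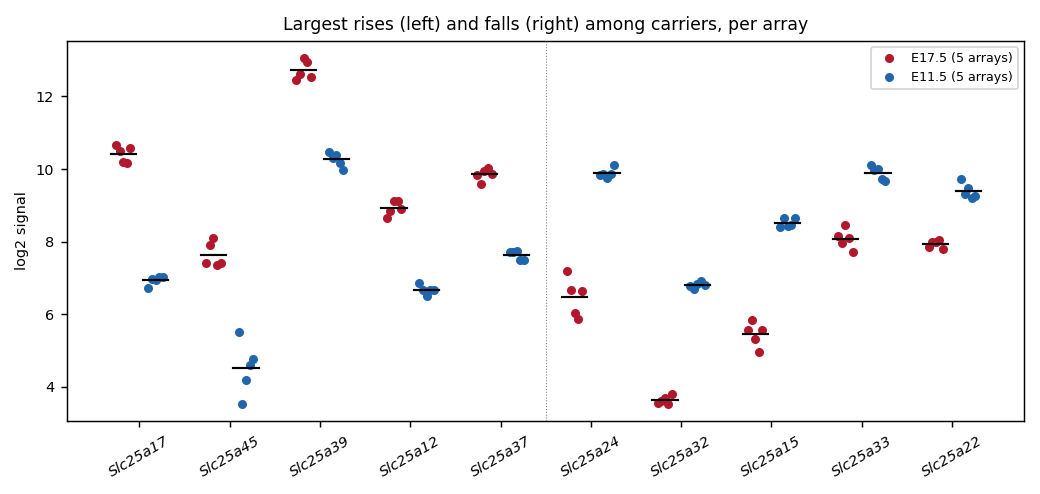
Log2 signal (y axis) per array, with 5 E17.5 arrays (red, left) and 5 E11.5 arrays (blue, right), for the called carriers with the 5 strongest rises and the 5 strongest falls, with a bar at each mean. No stage overlaps the other for any of these genes, and *Slc25a45* has the widest E11.5 spread and *Slc25a24* the widest E17.5 spread of those drawn.

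Of the 4 carriers that exchange ADP for ATP or import phosphate, 3 were higher. *Slc25a4* and *Slc25a5* (ANT1 and ANT2), which exchange ADP for ATP, averaged 13.15 ± 0.11 and 13.49 ± 0.14 at E17.5, against 11.72 ± 0.15 and 12.404 ± 0.16 at E11.5 (log2 signal, SD, n = 5 each). They rose 2.68-fold and 2.12-fold (adjusted p = 4.5e-08 and 1.2e-06), and after quantile normalization the log2 fold changes were 0.98 and 0.71. The germ cell form *Slc25a31* (ANT4) was dim in both stages at 3.43 ± 0.23 at E17.5 and 3.700 ± 0.38 at E11.5 and was not called as deposited, and it passed as lower after median centring (-0.52, adjusted p = 0.013). *Slc25a3*, which imports the phosphate that ATP synthase uses, gave 13.502, 13.36, 13.38, 13.54 and 13.48 at E17.5, against 10.92, 11.38, 11.27, 11.63 and 12.098 at E11.5. The E17.5 arrays lay within 0.19 of each other and the E11.5 arrays were spread over 1.17, and the rise was 3.98-fold (adjusted p = 6.9e-07). The probe sets of *Slc25a5* (suffix _x), *Slc25a3* and *Slc25a4* (suffix _a, for several transcripts of 1 gene) are suffixed. Over the family, 5 of 8 members with suffixed probe sets were higher and none was lower, while 13 of the other 37 were higher and 12 were lower. Without suffixed probe sets, 5127 of all genes were higher and 4602 lower. Among all 17813 genes, with or without a suffix, 36.9% were higher and 31.5% lower. The share called among all suffixed probe sets was not counted, so the split shows nothing particular to carriers. The part of the suffix in these rises was not tested.

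*Slc25a20*, which carries acylcarnitines in for fatty acid oxidation, averaged 12.48 ± 0.12 at E17.5 and 11.002 ± 0.06 at E11.5 (SD, n = 5 each) and rose 2.78-fold (adjusted p = 8.1e-09). Enzymes of the same shuttle were higher too. Of 4 measured, 3 rose, the carnitine palmitoyltransferases *Cpt1a* (6.21-fold, adjusted p = 1.9e-06) and *Cpt2* (5.42-fold, adjusted p = 8.5e-09) and the carnitine acetyltransferase *Crat* (21.5-fold, adjusted p = 8.3e-10), and *Cpt1c* was at 0.12 on the log2 scale (adjusted p = 0.56). The counts of this list were the same under both other scalings.

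Among di- and tricarboxylate carriers, *Slc25a10*, which exchanges malate and succinate for phosphate, averaged 10.71 ± 0.23 at E17.5 and 9.695 ± 0.05 at E11.5 (SD, n = 5 each). It rose 2.02-fold (adjusted p = 4.5e-06), and after quantile normalization the log2 fold change was 0.40 (adjusted p = 0.0055). *Slc25a1*, which exports citrate for lipid synthesis, was slightly lower as deposited, at 8.57 ± 0.12 at E17.5 and 8.94 ± 0.24 at E11.5. The fall was 1.3-fold (adjusted p = 0.015), with overlapping arrays. *Slc25a1* was at -0.86 (adjusted p = 3.9e-05) after quantile normalization and -0.62 (adjusted p = 0.00038) after median centring. The oxoglutarate-malate carrier *Slc25a11* had a log2 fold change of -0.05 (95% interval -0.28 to 0.19) as deposited, and it passed as lower after quantile normalization (-0.65, adjusted p = 0.0001) and median centring (-0.29, adjusted p = 0.049). Of 4 enzymes that turn exported citrate into acetyl-CoA, NADPH and fatty acids, 3 rose, *Acly* 2.64-fold, *Me1* 5.65-fold and *Fasn* 2.39-fold, and *Acaca* was 6.0-fold lower (adjusted p = 1.1e-07).

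The aspartate and glutamate carriers went different ways. Beside *Slc25a12*, which rose, its close relative *Slc25a13* (citrin) gave 11.19, 11.15, 11.23, 11.67 and 11.304 on E17.5 arrays, against 11.87, 12.08, 12.14, 12.13 and 12.12 on E11.5 arrays, and it was 1.69-fold lower (adjusted p = 5.6e-05) with no overlap. Beside *Slc25a22*, which fell, the other glutamate carrier *Slc25a18* was dim and had a log2 fold change of 0.23 (95% interval -0.23 to 0.68). The enzymes of the malate-aspartate shuttle were as uneven, with 1 of 4 higher and 3 lower. The mitochondrial aminotransferase *Got2* rose 19-fold, its cytosolic form *Got1* was 2.54-fold lower, and the malate dehydrogenases *Mdh1* and *Mdh2* were 81.7-fold and 1.35-fold lower (adjusted p = 4.7e-12 for *Got2*, 3.2e-06 for *Got1*, 4.5e-13 for *Mdh1* and 0.0032 for *Mdh2*). *Mdh1* averaged 3.53 ± 0.15 at E17.5 and 9.89 ± 0.15 at E11.5 (SD, n = 5 each), and the E17.5 mean lies under the lower quartile of those arrays, so its fold is against a signal that may be background.

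Of the carriers of other amino acids, *Slc25a44*, for branched-chain amino acids, rose 1.8-fold (adjusted p = 3.9e-05) and *Slc25a15* fell. *Slc25a38*, a glycine carrier used in haem synthesis, was at 0.19 on the log2 scale (adjusted p = 0.095) and *Slc25a29*, for basic amino acids, also at 0.19 (adjusted p = 0.37), and neither was called. The second mitoferrin, *Slc25a28*, was at 10.21, 10.25, 10.58, 10.34 and 10.21 at E17.5, against 10.39, 10.15, 10.101, 10.14 and 9.86 at E11.5, and did not pass (log2 fold change 0.19, adjusted p = 0.16). After quantile normalization *Slc25a28* and *Slc25a38* passed as lower (-0.42 and -0.32). The second glutathione carrier, *Slc25a40*, averaged 9.58 ± 0.14 at E17.5 and 8.995 ± 0.096 at E11.5, a rise of 1.5-fold (adjusted p = 9.9e-05) that was 0.04 on the log2 scale (adjusted p = 0.74) after quantile normalization.

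The cofactor carriers held both the largest rise and the second largest fall of the family, *Slc25a17* and *Slc25a32*. *Slc25a16* and *Slc25a42*, both linked to the CoA of the matrix, rose 1.97-fold and 1.95-fold (adjusted p = 1.6e-05 and 0.0012). *Slc25a42* was unevenly raised, at 7.05, 7.03, 7.595, 8.03 and 6.99 on E17.5 arrays, against 6.51, 6.56, 6.58, 6.16 and 6.08 on E11.5 arrays. *Slc25a51*, the NAD carrier, was 1.47-fold lower (adjusted p = 0.0038) with arrays that overlapped.

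None of the 5 measured uncoupling proteins and close relatives was higher. *Slc25a30*, *Ucp3* and *Slc25a14* were 1.95-fold, 1.6-fold and 1.39-fold lower (adjusted p = 7.8e-05, 0.0005 and 0.00022). Of these, *Slc25a30* was dim in both stages, with means of 5.32 at E17.5 and 6.29 at E11.5. *Slc25a14* was measured well above the dim range, at 10.88 ± 0.105 at E17.5 and 11.35 ± 0.08 at E11.5 (SD, n = 5 each). *Ucp3*, the form of muscle, and *Ucp1*, the thermogenic form of brown fat, were dim in both stages, with means of 3.89 and 4.29 at E17.5 and 4.56 and 4.56 at E11.5, and *Ucp1* was not called. *Slc25a27* cannot be settled, because its probe sets disagree. The brighter one averaged 6.85 ± 0.59 at E17.5 and 6.74 ± 0.71 at E11.5, a log2 fold change of 0.11 (adjusted p = 0.81), and the other averaged 5.302 ± 0.15 at E17.5 and 7.35 ± 0.17 at E11.5 (SD, n = 5 each), a difference of -2.05.

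*Slc25a46*, which lies in the outer membrane and shapes mitochondria, rose 1.82-fold, with 11.98 ± 0.08 at E17.5 and 11.11 ± 0.11 at E11.5 (SD, n = 5 each, adjusted p = 1.2e-06). Of 7 members with no substrate assigned here, *Slc25a45* and *Slc25a35* were higher, *Slc25a35* by 2.41-fold (adjusted p = 6.7e-07), and *Slc25a53* was 1.37-fold lower (adjusted p = 0.0025). *Slc25a34*, *Slc25a47*, *Slc25a48* and *Slc25a54* were not called, with log2 fold changes from -0.31 to -0.03, nor was *Slc25a41* of the ATP-Mg/phosphate group (-0.06). *Slc25a47* passed as lower after quantile normalization (-0.829, adjusted p = 0.00025), after median centring (-0.554, adjusted p = 0.0032) and without E17.5 replicate 4 (adjusted p = 0.048) or E11.5 replicate 3 (adjusted p = 0.038). Over the family, 29 members had a mean at or above the median probe set signal of 7.18, of which 15 were higher and 8 lower. Of the 16 dimmer ones, 3 were higher and 4 lower. All genes fitted without dim ones leaned upward too, with 4739 higher and 3404 lower. Their median log2 fold change was 0.226, beside 0.283 for the members. Shares over all dim genes were not counted, so the split shows nothing particular to carriers.

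Related carriers were compared in pairs. For 13 pairs of carriers with like substrates or sequence, the difference of the log2 signals was taken on each array and compared between stages, so that the levels of different probe sets were not set against each other. In 12 pairs the changes differed at an adjusted p under 0.05, from a two-sided exact permutation test on 5 against 5 arrays, adjusted over the 13 pairs. The smallest p this design allows is 0.0079, and it was reached by 11 of the 13 pairs. Pairs that share a gene are not independent. Pairs of unrelated genes were not compared, and since most genes on the arrays were called, the count shows nothing particular to related carriers.

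The ATP-Mg/phosphate carriers differed most. *Slc25a25* (SCaMC-2) gave 9.26, 8.48, 8.71, 8.65 and 8.83 on E17.5 arrays, against 7.59, 7.51, 7.69, 7.501 and 7.31 on E11.5 arrays, and rose 2.4-fold (adjusted p = 4.4e-06), while *Slc25a24* fell. Their changes were 4.67 apart on the log2 scale (exact p = 0.0079, adjusted p = 0.0094). *Slc25a23* (SCaMC-3) gave 10.14, 10.11, 10.35, 10.78 and 10.17 on E17.5 arrays, against 10.54, 10.34, 10.41, 10.35 and 10.18 on E11.5 arrays, with overlap and a log2 fold change of -0.06 (adjusted p = 0.74), 3.35 apart from *Slc25a24*. In limma *Slc25a23* passed as lower after quantile normalization (-0.655, adjusted p = 0.00053) and after median centring (-0.3, adjusted p = 0.049).

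*Slc25a12* and *Slc25a13* were called in opposite directions and differed by 3.02 in their changes. The ornithine carriers *Slc25a2* and *Slc25a15* differed by 2.75. *Slc25a2* was dim, at 5.27, 5.18, 4.52, 5.44 and 5.02 on E17.5 arrays and 5.67, 5.37, 5.02, 5.62 and 5.37 on E11.5 arrays, and was not called (adjusted p = 0.12). The pyrimidine nucleotide carriers differed by 2.11. *Slc25a36* was at 11.07, 10.93, 10.72, 10.72 and 10.79 on E17.5 arrays, against 10.72, 10.54, 10.47, 10.45 and 10.64 on E11.5 arrays, and rose 1.22-fold as deposited (adjusted p = 0.021). That call is not stable, since *Slc25a36* was at -0.32 (adjusted p = 0.0093) after quantile normalization and did not pass without E11.5 replicate 3 (adjusted p = 0.051) or 4 (adjusted p = 0.055).

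The mitoferrins *Slc25a37* and *Slc25a28* differed by 2.03, the glutathione carriers *Slc25a39* and *Slc25a40* by 1.87 and the glutamate carriers *Slc25a18* and *Slc25a22* by 1.68. The pair *Slc25a25* and *Slc25a23* differed by 1.32, *Slc25a35* and *Slc25a34* by 1.3009, *Slc25a10* and *Slc25a11* by 1.06, and *Slc25a14* and *Slc25a30* by 0.49. For *Slc25a4* and *Slc25a5* the difference of changes was 0.34 (exact p = 0.079), and the stages overlapped, since the differences of log2 signal lay between -0.61 and -0.04 for E17.5 and between -0.91 and -0.17 for E11.5.

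**Figure D3:**
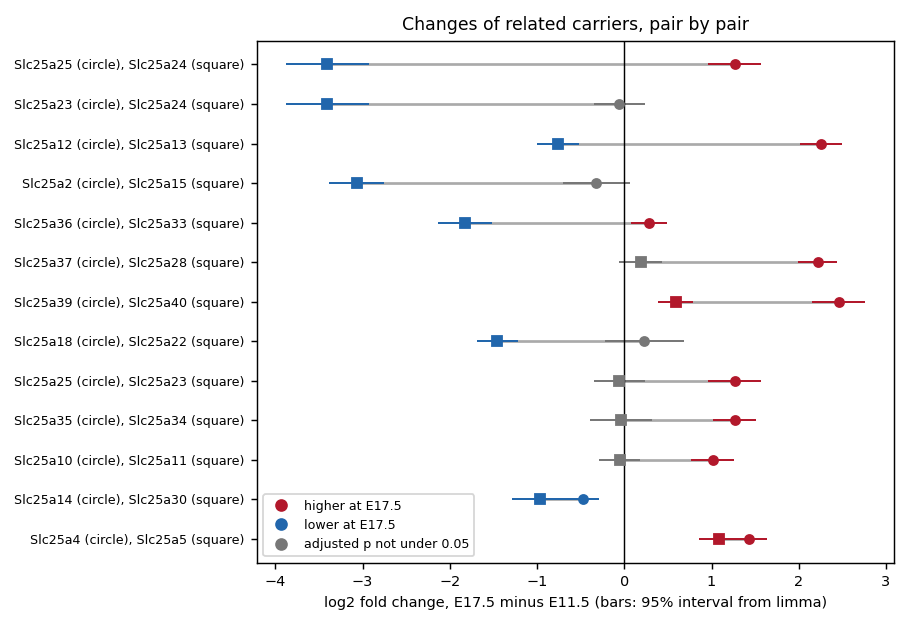
Log2 fold change (x axis, E17.5 minus E11.5) of both members of each of 13 pairs of related carriers (y axis), joined by a line, with 95% intervals from limma on 5 arrays per stage. The widest gap is 4.67, between *Slc25a25* and *Slc25a24*, and the narrowest 0.34, between *Slc25a4* and *Slc25a5*.

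Promoter sequence was compared between members that rose and members that fell. Windows from 250 bases before to 50 after the start of a gene (RefSeq, GRCm38.p6) were given for 36 members, of which 14 were higher and 10 lower, and for 14167 genes tested. Both strands were searched for the letters of 16 motifs, some of which overlap: CACGTG (the E-box), CCGGAAG (bound by ETS factors such as GABP), GCATGCGC (bound by the factor NRF1, searched alone and also preceded by GC), CCAAT (the box of that name), AAGGTCA (bound by oestrogen-related receptors, searched alone and also preceded by TC), the glucocorticoid receptor motif by its name, TTCCNGGAA and TTCNNNGAA (bound by STAT factors), GGGCGG (bound by SP1), TGACGTCA, TGACGTG and TGACG (bound by CREB and its relatives), ACGTGC (bound by HIF factors) and TGTTTAC (bound by FOXA factors). Those given here were chosen after all were seen, for the gap between higher and lower members. CACGTG stood in windows of 5 of 10 lower and 1 of 14 higher members, against 11.3% of all lower and 10.4% of all higher genes with a window. The 1 higher member was *Slc25a36*, which turned lower after quantile normalization (-0.32). CCGGAAG stood in windows of 5 of 14 higher and 0 of 10 lower members, against 15% of all higher and 19.7% of all lower genes. Of 12 members not called, 1 held CACGTG and 2 held CCGGAAG, against 9.13% and 10.3% of all genes not called. No member held the longer NRF1 form, the longer oestrogen-related receptor form, the glucocorticoid receptor motif, TTCCNGGAA or TGTTTAC, which stood in 1.78%, 0.388%, 0.388%, 1.47% and 3.39% of all genes with a window. The letters describe sequence only, and binding was not measured. The stretches below show CACGTG in 3 carriers that were lower and CCGGAAG in 3 that were higher, in capitals, with 25 bases on each side, 5′ to 3′ on the strand of the gene.
*Slc25a33* (chr4:149774245-149774300, minus strand): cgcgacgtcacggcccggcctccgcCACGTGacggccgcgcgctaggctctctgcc
*Slc25a15* (chr8:22398324-22398379, minus strand): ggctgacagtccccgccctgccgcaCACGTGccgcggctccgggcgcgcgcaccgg
*Slc25a13* (chr6:6217268-6217323, minus strand): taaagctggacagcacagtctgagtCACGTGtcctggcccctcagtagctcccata
*Slc25a17* (chr15:81360811-81360867, minus strand): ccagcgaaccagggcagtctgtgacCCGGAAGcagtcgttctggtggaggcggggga
*Slc25a3* (chr10:91124111-91124167, minus strand): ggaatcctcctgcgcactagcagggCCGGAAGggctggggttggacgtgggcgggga
*Slc25a20* (chr9:108662032-108662088, plus strand): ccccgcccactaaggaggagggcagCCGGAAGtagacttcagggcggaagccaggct

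Genes outside the family were mixed as well. Of 13 genes of the route that imports carriers, 5 were higher and 6 lower as deposited, but 1 and 11 with quantile-normalized values and 2 and 8 with centred ones. The small TIM chaperones *Timm9* and *Timm10* were 5.18-fold and 2.95-fold lower (adjusted p = 2.9e-07 and 5.3e-09) and the pore *Tomm40* 2.72-fold lower, while *Agk*, a subunit of the TIM22 complex, rose 2.95-fold (adjusted p = 9.7e-09). The receptor *Tomm70a* had a log2 fold change of -0.006 as deposited and -0.57 after quantile normalization, and *Timm22* one of 0.28 as deposited and -0.34 after quantile normalization. The pyruvate carrier subunit *Mpc1* rose 3.8-fold and the divergent outer membrane carrier *Mtch2* 15.9-fold, and *Mtch1* was not called. Of the outer membrane pores, *Vdac1* rose 1.77-fold, *Vdac3* was 1.38-fold lower and *Vdac2* was not called as deposited but passed as lower under both other scalings (-0.465 and -0.36). Among the sideroflexins, another family of inner membrane carriers, *Sfxn5*, *Sfxn2* and *Sfxn3* rose 8.51-fold, 5.12-fold and 2.5-fold, and the serine carrier *Sfxn1* and *Sfxn4* were 3.53-fold and 1.62-fold lower. Of 8 regulators of mitochondrial biogenesis, 4 were higher and 3 lower as deposited, and 3 and 3 under both other scalings, where *Gabpa* lost its call (-0.068, adjusted p = 0.6, and 0.278, adjusted p = 0.06). The coactivators *Ppargc1a* and *Ppargc1b* rose 2.52-fold and 4.44-fold, their relative *Pprc1* was 2.66-fold lower and *Tfam*, which packs mitochondrial DNA, was 2.46-fold lower.

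**Figure D4:**
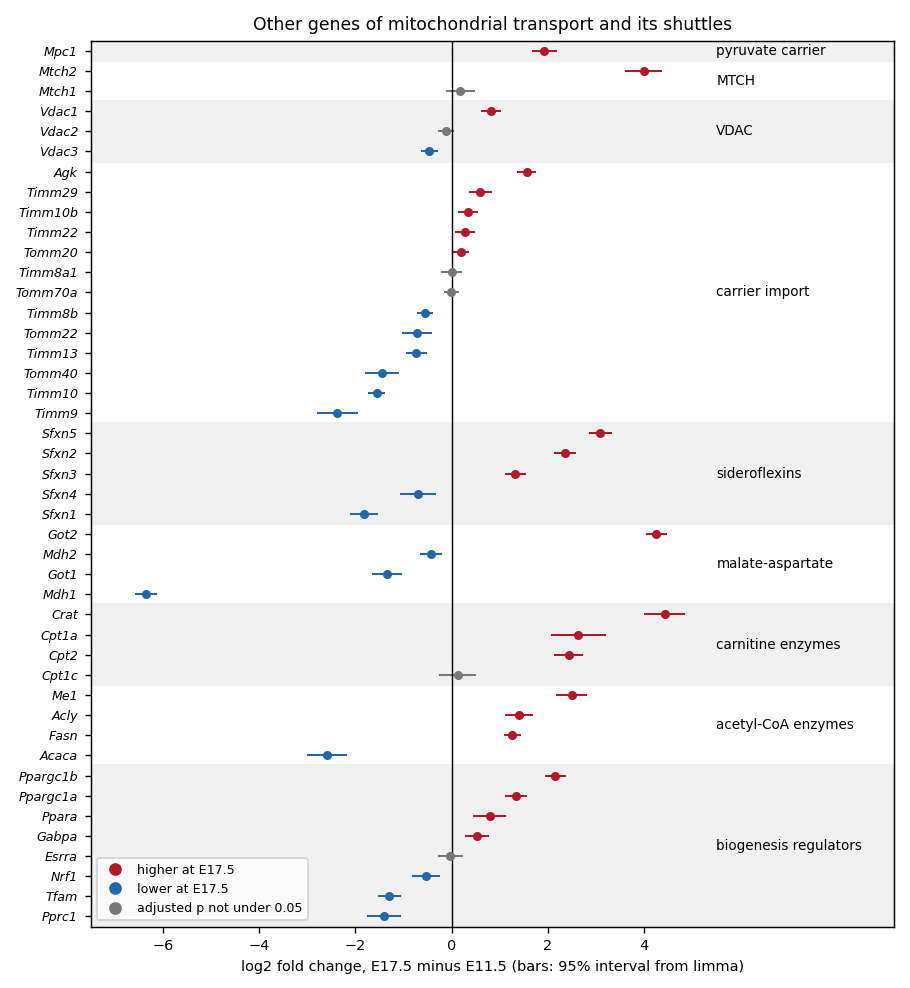
Log2 fold change (x axis, E17.5 minus E11.5) of the other genes of mitochondrial transport, its shuttles and its regulators (y axis), grouped by list, with 95% intervals from limma on 5 arrays per stage. Values run from -6.35 for *Mdh1* to 4.42 for *Crat*, and in each list with over 1 gene called, except the carnitine enzymes, both directions occur.

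**Figure D5:**
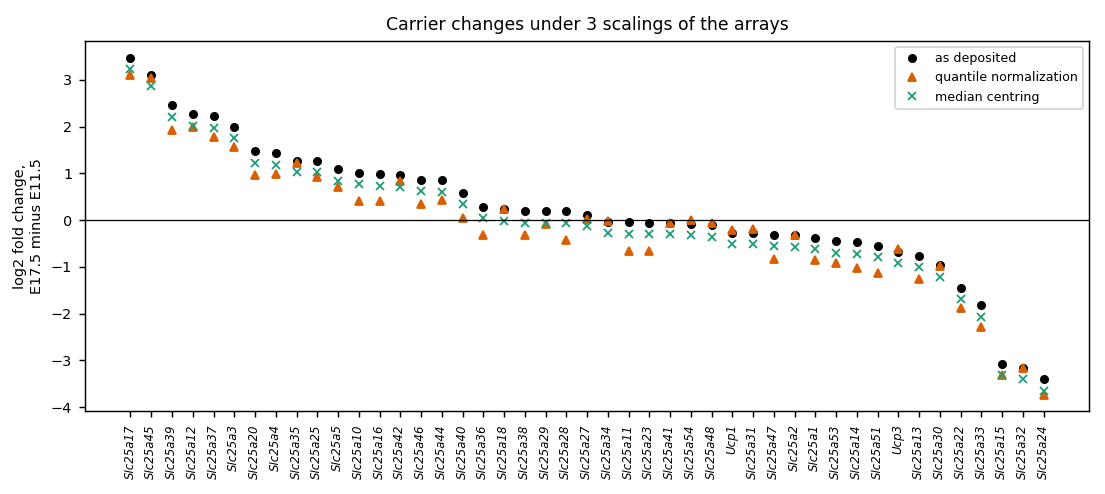
Log2 fold change (y axis, E17.5 minus E11.5) of each of the 45 carriers (x axis, ordered by the value as deposited) from values as deposited (black), after quantile normalization (orange) and after median centring (green). The 5 largest rises and the 5 largest falls keep their direction, and carriers near 0 such as *Slc25a28*, *Slc25a38* and *Slc25a36* fall below 0 after quantile normalization.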

How the data were processed

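The authors deposited 1 table of log2 signals for 21204 probe sets on 10 Affymetrix mouse genome arrays, 5 of E17.5 and 5 of E11.5. RNA was extracted with RNeasy and amplified with NuGEN Ovation kits, and the authors used Bioconductor. How background was corrected, arrays normalized and probe sets chosen: not given in the sources used here. No read depth exists for arrays, and their number limits the precision.

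Of the probe sets, 17981 name 1 gene, 514 several and 2709 none. For genes with several, the one with the highest mean over the 10 arrays was used, which gave 17813 genes. The values were used as deposited. E17.5 was set against E11.5 with limma 3.58.1 (lmFit and eBayes) in R 4.3.3, checked first on simulated data, with Benjamini-Hochberg adjustment over all genes and a threshold of 0.05. Probe sets with a mean under 7.18, the median of the table, are called dim. Pairs of carriers were tested by an exact permutation of all 252 splits (SciPy 1.17.1). Alternatives were quantile normalization, median centring, the mean of all probe sets, leaving out suffixed or dim probe sets, a replicate block, array weights, a trended robust fit and leaving out each array.

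Array values were given for the 5 largest rises and falls among called carriers and for pairs at least 2 apart in their log2 changes. Members, lists and pairs were chosen with earlier results of these data known.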

Additional observations from a re-analysis of the deposited data

Results flagged for a closer look

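An array stood apart from the other 4 of its stage, by a gap of more than 0.71 of the range of the 5 (Dixon's 95% limit), in 5 of 90 groups of 5 arrays, and chance flags about 1 in 20 groups (4.5 here). *Slc25a16* was highest on E17.5 replicate 1, at a log2 signal of 10.164, with the nearest array at 9.797. On E11.5 replicate 1, *Slc25a11* (10.026, nearest 10.31), *Slc25a13* (11.873, nearest 12.081) and *Slc25a17* (6.715, nearest 6.954) were lowest. *Slc25a53* was lowest on E11.5 replicate 3, at 8.696, with the nearest array at 8.981.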

How the results depend on the processing

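Of 30 carriers called, 28 kept their direction and their call under every alternative that measured them, and *Slc25a36* and *Slc25a40* did not. Median centring raised the number of lower carriers to 21, against 12 as deposited, since it subtracts 0.244 from the log2 fold change of every gene. The 9 gained were *Slc25a2*, *Slc25a11*, *Slc25a23*, *Slc25a31*, *Slc25a41*, *Slc25a47*, *Slc25a48*, *Slc25a54* and *Ucp1*. Quantile normalization turned the direction of *Slc25a36* (-0.32), *Slc25a29* (-0.089), *Slc25a38* (-0.319), *Slc25a28* (-0.421) and *Slc25a54* (0.012), and left *Slc25a40* at 0.036. By the same subtraction, carriers between 0 and that shift had to turn under median centring, which were *Slc25a18* (-0.018), *Slc25a29* (-0.054), *Slc25a38* (-0.053), *Slc25a28* (-0.054) and *Slc25a27* (-0.135), and *Slc25a36* was left at 0.039. The mean of both probe sets gave -0.968 for *Slc25a27*, and array weights gave 0.005 for *Slc25a34*. Leaving out 1 array at a time gave 17 to 18 higher carriers, 12 to 13 lower carriers and 12 to 13 pairs. *Slc25a41* ranged from -0.138 to 0.015, *Slc25a11* from -0.119 to 0.001, *Slc25a27* from -0.074 to 0.366 and *Slc25a34* from -0.144 to 0.044, none of them called as deposited.

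The replicate numbers do not pair the arrays, since same-numbered arrays correlated at -0.294 to 0.074 in their deviations from the stage means. With the replicate number as a block, 18 carriers were higher and 13 lower, with *Slc25a2* gained (-0.323, adjusted p = 0.019 from limma). The unknown normalization limits small changes most, and 16 of 45 carriers were dim.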
